A study of Mus musculus with 9 samples.

Results

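Prostaglandins, thromboxane and leukotrienes are made from arachidonic acid by a short chain of enzymes, and 10 genes of that chain were followed here among the 22482 genes of a mouse brain RNA-seq table. They were taken by symbol: Pla2g4a, Ptgs1, Ptgs2, Ptges, Ptgds, Hpgds, Tbxas1, Alox5, Alox5ap and Lta4h. All 10 were found, each as 1 entry, and all 10 passed the filter on low values (FPKM of at least 0.5 in at least 3 of the 9 libraries), as did 14292 genes in all. FPKM is the number of sequenced fragments per kilobase of transcript, scaled to the mapped fragments of the library.

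The libraries fall into 3 groups of 3. In the C-β-LG/DSF group, mice with traumatic brain injury (TBI) were given C-β-LG/DSF, which the series title places among nanoparticles, through the tail vein. In the TBI group the brain was injured by a falling weight and no agent is named. In the Sham group the skull was drilled and the dura opened, and the tissue came from the matching site without damage to the brain. Strain, sex and age of the mice, the dose, the time after injury and whether each library came from its own animal are not stated in the labels, so the p-values measure only the spread between these samples. The study set out to look at genes of pyroptosis, an inflammatory form of cell death, and of inflammation.

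Cytosolic phospholipase A2, encoded by Pla2g4a, frees arachidonic acid from membrane lipids. Cyclooxygenases (Ptgs1, Ptgs2) turn it into prostaglandin H2, which terminal synthases convert to prostaglandin E2 (Ptges), prostaglandin D2 (Ptgds, Hpgds) or thromboxane A2 (Tbxas1). 5-Lipoxygenase (Alox5), helped by the membrane protein FLAP (Alox5ap), instead makes leukotriene A4, which Lta4h hydrolyses to leukotriene B4. In the brain, microglia and invading myeloid cells carry much of the cyclooxygenase-1, thromboxane and leukotriene machinery, whereas cyclooxygenase-2 is also made by forebrain neurons, where synaptic activity induces it, and Ptgds is a major transcript of meninges, choroid plexus and oligodendrocytes.

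3 promoters are printed because their genes show the contrasts described here: Ptgs1 and Ptgs2 encode the same reaction and Hpgds is the prostaglandin D2 synthase of blood-derived and microglial cells. The RefSeq promoter table (build GRCm38.p6, 250 bases before to 50 bases after each start) held 10 promoters for 9 of the 10 genes. Both strands were searched for 5 motifs. Capitals mark GAGGAAGT, a form of the site of the myeloid factor PU.1, in Ptgs1 and Hpgds, and CACGTG, an E-box, in Ptgs2. The lines give Ptgs1 at chr2:36230176-36230475 (plus strand), Hpgds at chr6:65144681-65144980 (minus strand) and Ptgs2 at chr1:150099781-150100080 (plus strand), each 5′ to 3′.
Ptgs1: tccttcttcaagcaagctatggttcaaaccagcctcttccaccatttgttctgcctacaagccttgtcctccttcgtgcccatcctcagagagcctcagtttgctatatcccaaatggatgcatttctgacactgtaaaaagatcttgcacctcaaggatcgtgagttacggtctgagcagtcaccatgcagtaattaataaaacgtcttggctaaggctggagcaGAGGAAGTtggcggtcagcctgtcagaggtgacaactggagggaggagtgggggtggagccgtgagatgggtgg
Hpgds: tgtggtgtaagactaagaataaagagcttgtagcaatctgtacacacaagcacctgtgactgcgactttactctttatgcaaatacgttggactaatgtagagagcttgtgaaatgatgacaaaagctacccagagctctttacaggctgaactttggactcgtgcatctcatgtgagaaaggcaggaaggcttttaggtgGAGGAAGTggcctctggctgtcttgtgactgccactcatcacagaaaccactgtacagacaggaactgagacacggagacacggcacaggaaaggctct
Ptgs2: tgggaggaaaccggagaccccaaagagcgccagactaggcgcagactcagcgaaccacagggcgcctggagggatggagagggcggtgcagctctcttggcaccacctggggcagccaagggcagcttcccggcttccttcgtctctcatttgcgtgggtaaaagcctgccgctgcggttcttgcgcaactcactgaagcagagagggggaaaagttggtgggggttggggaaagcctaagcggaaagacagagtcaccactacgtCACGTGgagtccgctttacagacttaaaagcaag
GAGGAAGT lies 24 to 17 bases before the start in Ptgs1 and 49 to 42 bases before it in Hpgds, and 3.2% of all 32851 promoters of the table hold it. CACGTG lies 17 to 22 bases after the start in Ptgs2 and occurs in 7.15% of promoters. The AP-1 form TGANTCA was found in the Ptgds and Tbxas1 windows (7.81% of all promoters) and TATAAA in those of Pla2g4a and Tbxas1 (13.6%). The cyclic AMP element TGACGTCA (1.79%) is in none of the 10 windows. None of the marked sites overlaps another of the searched motifs, and a match is a description of these letters, not a bound site.

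FPKM totals ran between 406274 and 445404 per library, and the read fragments behind them are not given. Correlations between libraries of a group were 0.976 to 0.986 for C-β-LG/DSF, 0.946 to 0.972 for TBI and 0.989 to 0.990 for Sham, so TBI libraries differed most among themselves. The TBI 3 library stood apart in tissue content: its 10 thalamic marker genes summed to 272 FPKM, and those of C-β-LG/DSF 2 and 3 to 200.2 and 137, against 50.2 to 52.9 in the Sham libraries. Its choroid plexus markers summed to 286.5 FPKM (Ttr 270.0) and its oligodendrocyte markers to 9391 FPKM, against at most 11.6 and 3241 FPKM in Sham libraries. Because these are pieces of tissue, fewer cells of a type and less RNA per cell cannot be told apart.

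In TBI against Sham tissue, 5 of the 10 genes rose and none fell. Pla2g4a, Ptgs1, Hpgds, Tbxas1 and Alox5ap passed the test (limma on log2(FPKM + 0.5), adjusted p under 0.05 over all 14292 genes), while Ptgs2, Ptges, Ptgds, Alox5 and Lta4h did not. In the same comparison 14.9% of all tested genes were called higher, 12% lower and 26.8% either way. The median difference of the 10 genes was 0.72 on the log2 scale, beside 0.01 over all tested genes. For 6 of the 10 genes every TBI library was above every Sham library, and for none was every TBI library below. Of these 6, Tbxas1 and Alox5 met the filter through the injured libraries. Over all tested genes 22.6% were separated upward, 20.4% downward and 42.9% either way. At an unadjusted p under 0.05 there were 8 of the 10 genes, beside 39.1% of all tested genes.

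**Figure D1:**
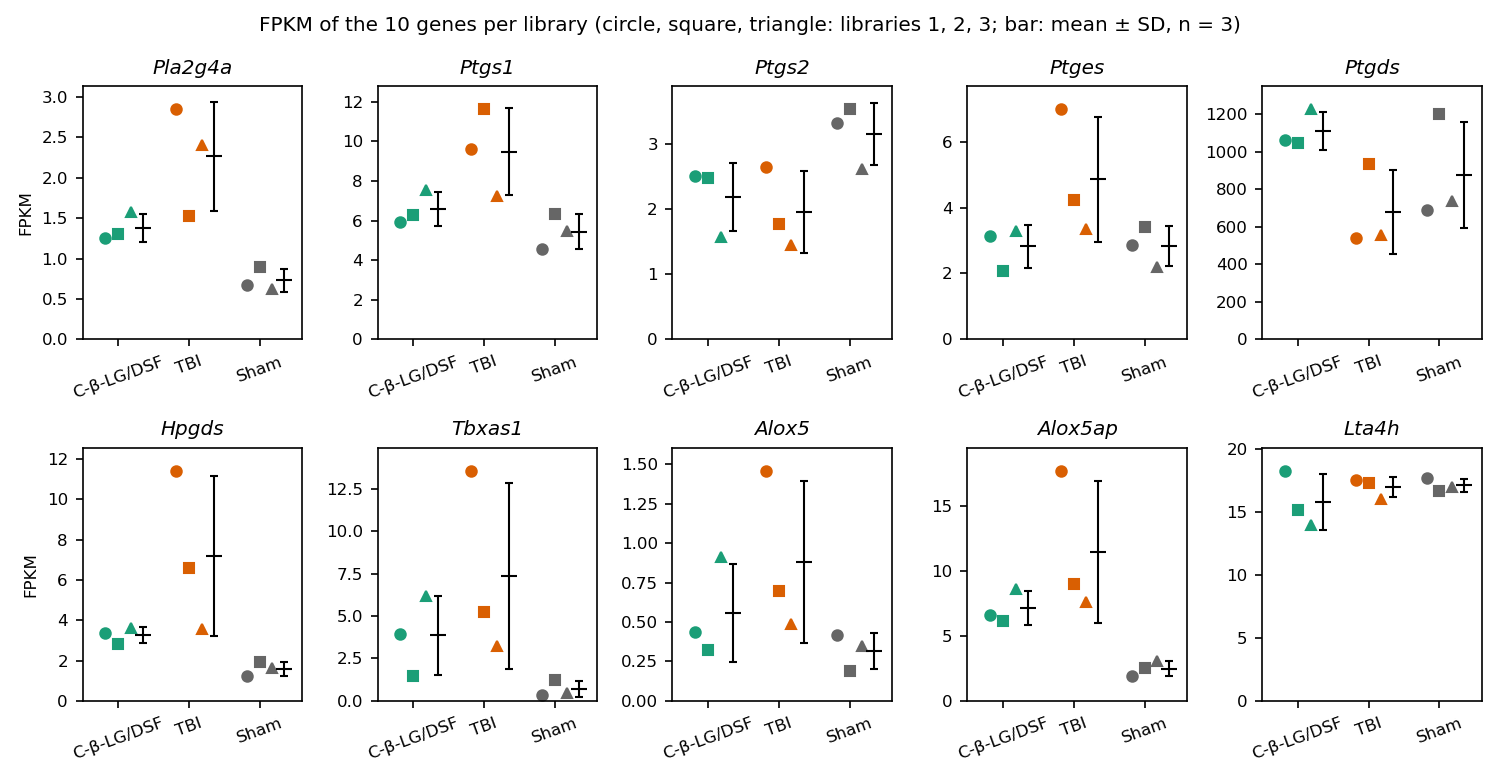
FPKM of each of the 10 genes in every library, by group, on axes that start at 0; the bar beside each group is the mean ± SD (n = 3). Alox5ap runs between 7.62 and 17.7 FPKM in TBI libraries against 1.88 to 3.04 FPKM in Sham libraries, while Lta4h lies between 13.9 and 18.3 FPKM in all 9 libraries.

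Pla2g4a, which starts the chain by freeing arachidonic acid, rose in injured tissue. Pla2g4a (chr1:149829618-149961290, minus strand, GRCm38) had 2.85, 1.53 and 2.41 FPKM in TBI libraries, against 0.669, 0.891 and 0.627 FPKM in Sham libraries. Every TBI library was above every Sham library. The log2 difference was 1.14 (SE 0.21, adjusted p = 0.00485 by limma), a 2.21-fold difference on the scale of FPKM + 0.5, which understates the change of a gene this low. The authors' interval around the FPKM value reached 0 in 5 of the 9 libraries for this gene, including every Sham library.

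Around Pla2g4a, enzymes that release arachidonic acid or put it back into lipids moved in both directions. Of 23 such genes 16 were tested in TBI against Sham tissue, with 4 higher, 3 lower and a median log2 difference of -0.18. Calls in both directions were also found over all tested genes, 14.9% higher and 12% lower. Lpcat2, which makes platelet-activating factor and remodels phosphatidylcholine, had 10.5, 8.17 and 7.12 FPKM in TBI libraries against 2.99, 3.84 and 2.95 FPKM in Sham libraries (log2 difference 1.27, SE 0.18, adjusted p = 0.00185 by limma). Lpcat3, which loads polyunsaturated fatty acids into phospholipids, had 21.1, 15.2 and 13.3 FPKM in TBI libraries against 8.58, 8.26 and 7.22 FPKM in Sham libraries (log2 difference 0.98, adjusted p = 0.0030 by limma). Both acyltransferases were higher in every TBI library than in any Sham library. Pla2g4e, a relative of Pla2g4a that makes N-acylated phospholipids, fell to 8.77, 9.52 and 9.66 FPKM in TBI libraries against 19.1, 14.0 and 16.4 FPKM in Sham libraries (log2 difference -0.78, adjusted p = 0.00423 by limma). The other calls were Pla2g15 and Pla2g16 higher, and Dagla, which makes 2-arachidonoylglycerol, and Acsl4, which couples arachidonate to coenzyme A, lower. Of these, Pla2g16, Dagla and Acsl4 did not pass when certain libraries were left out: any of the 3 Sham libraries, TBI 2 or TBI 3 for Pla2g16 (nor with quantile normalization), Sham 3 for Dagla, and Sham 2, Sham 3, TBI 1 or TBI 2 for Acsl4 (nor with only TBI and Sham fitted).

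**Figure D2:**
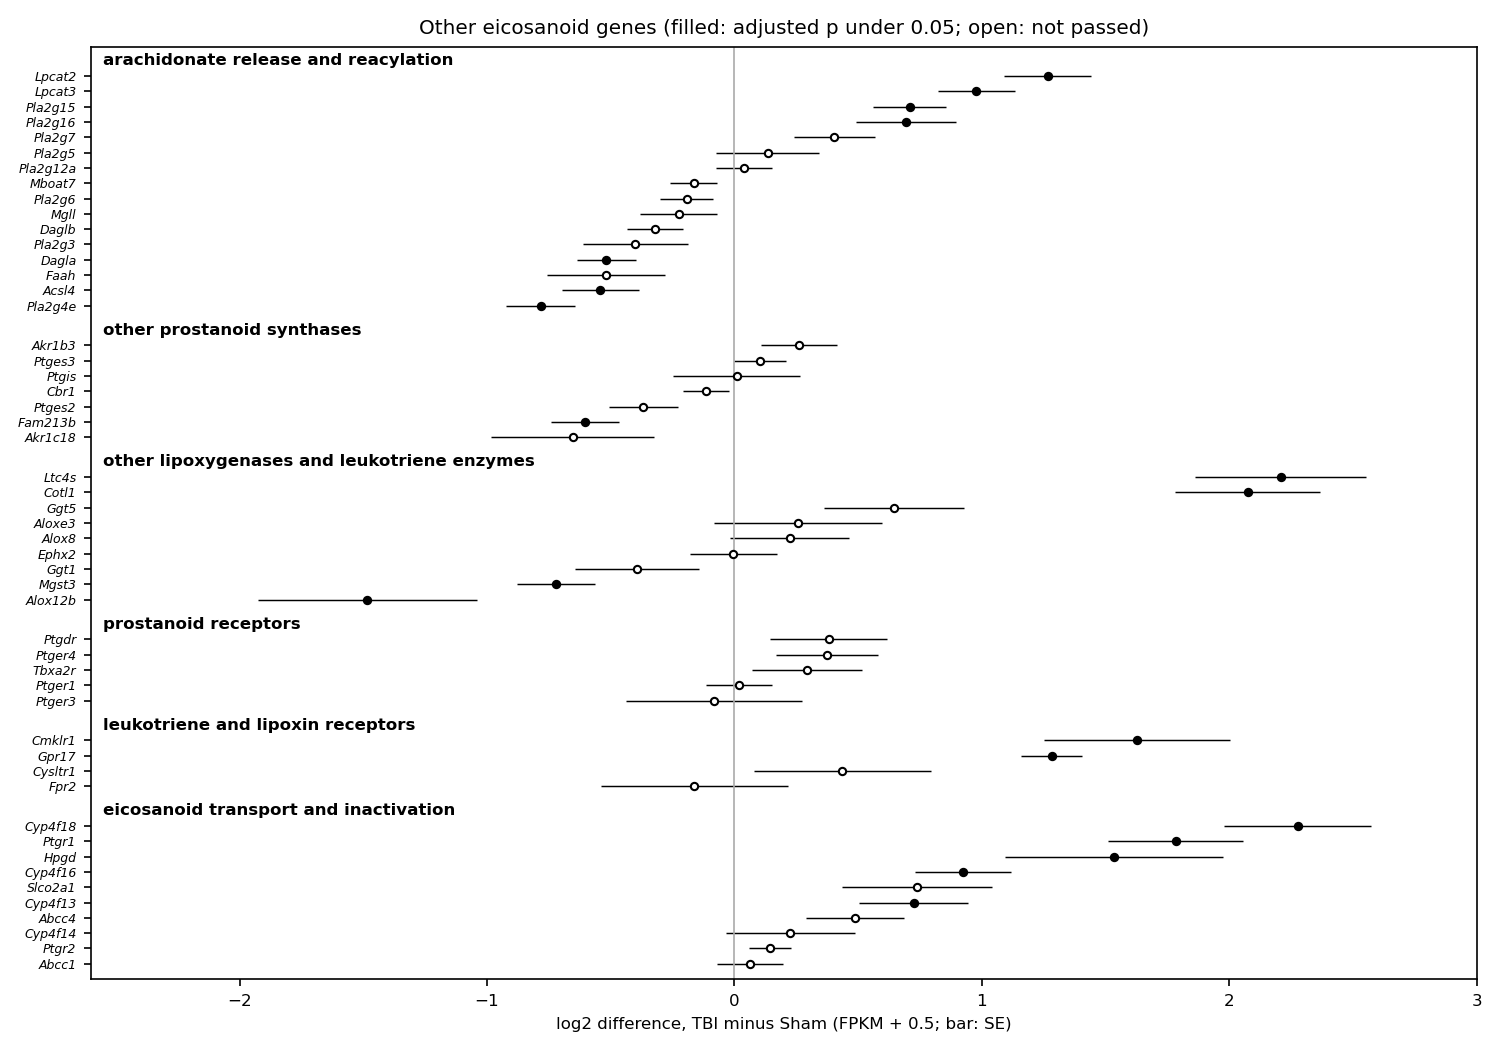
Fitted log2 differences, TBI minus Sham, of the 51 tested genes of 6 lists around the 10 enzymes, with the SE as a bar; filled points passed the test and open points did not. Filled points lie on both sides of 0 for the enzymes of release and reacylation, and on the higher side alone for transport and inactivation.

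The cyclooxygenase transcripts differed in sign. Ptgs1 (chr2:36230426-36252272, plus strand), the constitutive cyclooxygenase-1, had 9.61, 11.6 and 7.22 FPKM in TBI libraries, against 4.55, 6.32 and 5.46 FPKM in Sham libraries. All 3 TBI libraries lay above all 3 Sham libraries, TBI 3 by the smallest margin. Ptgs1 thus differed by 0.74 on the log2 scale (SE 0.18, adjusted p = 0.0173 by limma). Without Sham 1 the Ptgs1 difference was 0.62 (adjusted p = 0.0674 by limma) and without Sham 3 it was 0.74 (adjusted p = 0.0534 by limma), so the call rests on those libraries.

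Ptgs2 (chr1:150100031-150108227, plus strand), the inducible cyclooxygenase-2, had 2.65, 1.78 and 1.45 FPKM in TBI libraries, against 3.32, 3.54 and 2.62 FPKM in Sham libraries. TBI 1 lay just above the lowest Sham library, and the other 2 TBI libraries lay below all Sham libraries. Its log2 difference was -0.60 (95% interval -1.10 to -0.09) and did not pass (adjusted p = 0.0775 by limma). It passed without TBI 1 (-0.79, adjusted p = 0.0306 by limma), and with quantile normalization (-0.89, adjusted p = 0.0192 by limma). No setting gave a higher Ptgs2 in TBI than in Sham tissue.

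Other genes that neuronal activity induces fell: 11 of 12 listed genes (Fos, Arc, Npas4, the Egr family and others) were called lower in TBI than in Sham tissue, with a median log2 difference of -1.91. Their summed FPKM was 223 to 589 in TBI libraries against 1066 to 1289 in Sham libraries. Library by library the order differed from that of Ptgs2: TBI 3 had the highest sum of the activity-induced genes among the TBI libraries and the lowest Ptgs2. Neuronal markers summed to 1778 to 2524 FPKM in TBI libraries against 3448 to 3542 FPKM in Sham libraries, with 4 of 10 called lower. The part of either list in the Ptgs2 values was not tested.

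As a share within a library, Ptgs2 over Ptgs1 separated the groups without overlap. The log2 ratio of (FPKM + 0.5) was -1.68, -2.41 and -1.99 in TBI libraries, against -0.40, -0.75 and -0.93 in Sham libraries. Every library held more Ptgs1 than Ptgs2, and the gap was wider in each TBI library. The difference of -1.33 gave p = 0.1 by a two-sided exact permutation test (adjusted p = 0.12 over 6 ratio tests), and 0.1 is the smallest p that 3 libraries against 3 allow.

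**Figure D3:**
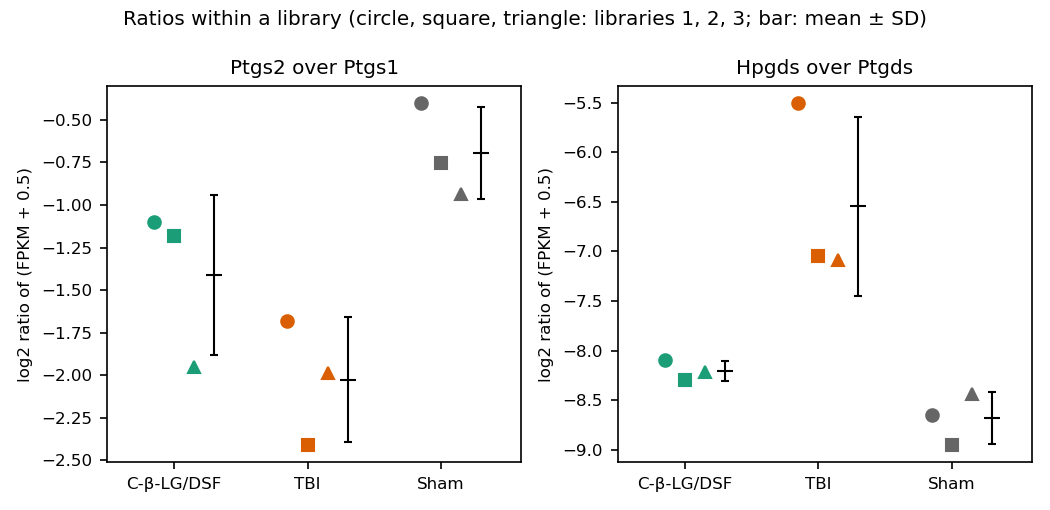
Log2 ratios of (FPKM + 0.5) within each library for Ptgs2 over Ptgs1 and for Hpgds over Ptgds, by group, with the mean ± SD (n = 3). The TBI libraries lie between -2.41 and -1.68 for Ptgs2 over Ptgs1 and between -7.09 and -5.50 for Hpgds over Ptgds, without overlap with the Sham libraries.

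Among the terminal synthases, the transcripts of the hematopoietic prostaglandin D synthase and of thromboxane synthase rose. Hpgds (chr6:65117293-65144908, minus strand), the glutathione-dependent hematopoietic prostaglandin D synthase, had 11.4, 6.58 and 3.58 FPKM in TBI libraries, against 1.22, 1.92 and 1.63 FPKM in Sham libraries. The lowest TBI library, TBI 3, was still above the highest Sham library. Its log2 difference was 1.76 (SE 0.33, adjusted p = 0.00538 by limma), the authors' interval stayed above 0 in all 9 libraries, and leaving out any library kept the difference between 1.38 and 2.15 with the call intact.

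Tbxas1, thromboxane A synthase, had 13.6, 5.23 and 3.25 FPKM in TBI libraries, against 0.351, 1.21 and 0.467 FPKM in Sham libraries. These libraries did not overlap, and the TBI libraries spanned 4.18-fold among themselves. At 2.58 (SE 0.55, adjusted p = 0.00911 by limma), its log2 difference was the largest of the 10 genes. Among Sham libraries only Sham 2 reached 0.5 FPKM, so Tbxas1 met the filter through the injured libraries, where it is high. Its values are imprecise: the authors' interval reached 0 in all 9 libraries. The file gives Tbxas1 the locus chr6:38694390-39084585, which also covers Hipk2 on the opposite strand, whereas GENCODE M21 (GRCm38) places Tbxas1 at chr6:38875404-39084585 and has the genes share 762 bases. Hipk2 itself had 7.10, 7.54 and 14.0 FPKM in TBI libraries and 8.07, 8.98 and 8.35 FPKM in Sham libraries. The log2 difference of Hipk2 was 0.10 (adjusted p = 0.791 by limma). The library highest for Hipk2, TBI 3, was the lowest TBI library for Tbxas1. Likewise, C-β-LG/DSF 2 was the highest library of its group for Hipk2 (11.2 FPKM) and the lowest for Tbxas1. Sham 2 was the highest Sham library for both genes. The Tbxas1 values may hold reads assigned within the merged locus, and the part of such reads was not tested.

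Ptges (chr2:30889471-30903297 in the file, minus strand), the microsomal prostaglandin E synthase that is induced together with cyclooxygenase-2 in inflammation, had 6.99, 4.22 and 3.35 FPKM in TBI libraries, against 2.87, 3.42 and 2.21 FPKM in Sham libraries. TBI 3 lay below Sham 2, so the groups overlapped. The log2 difference of 0.64 (95% interval 0.05 to 1.23) did not pass (adjusted p = 0.101 by limma). Without TBI 3 it was 0.85 and passed (adjusted p = 0.0349 by limma).

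Ptgds (chr2:25466709-25470046, minus strand), the lipocalin-type prostaglandin D synthase that is also a secreted carrier protein, was the most abundant of the 10 transcripts in every library. It had 541, 935 and 554 FPKM in TBI libraries, against 690, 1200.4 and 739 FPKM in Sham libraries. Library 2 was the highest in either group and the groups overlapped. Its log2 difference was -0.38 (95% interval -0.96 to 0.21, adjusted p = 0.3204 by limma). The ratio of Hpgds to Ptgds within a library did not overlap between these groups: the log2 ratio was -5.50, -7.05 and -7.09 in TBI libraries against -8.65, -8.96 and -8.44 in Sham libraries (difference 2.14, exact permutation p = 0.1, adjusted p = 0.12).

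Cell markers tied to these synthases did not move alike. Leptomeningeal and fibroblast markers summed to 126 to 171 FPKM in TBI libraries against 42.4 to 87.2 FPKM in Sham libraries, with 5 of 12 called higher (Col3a1, Lum, Col1a1, Dcn and Col1a2). Oligodendrocyte markers summed to 2902 to 9391 FPKM in TBI libraries against 1725 to 3241 FPKM in Sham libraries with none of 10 called, and choroid plexus markers to 5.78 to 286.5 FPKM against 1.79 to 11.6 FPKM with 2 of 9 called higher. TBI 3, by far the highest library for the oligodendrocyte and choroid plexus lists, had 554 FPKM of Ptgds, close to the lowest value of all 9 libraries. Of 9 mast cell markers, 7 were under 0.5 FPKM in every library and Fcer1a was listed at 0 in all, and neither tested marker (Kit, Hdc) was called. Platelet markers summed to 28.1 to 44.6 FPKM in TBI libraries against 25.0 to 28.8 FPKM in Sham libraries, most of it Gp1bb, and 1 of 8, Pf4, was called higher. The part of these lists in the values of Ptgds, Hpgds and Tbxas1 was not tested.

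Of the remaining prostanoid synthases none rose. All 7 listed genes were tested in TBI against Sham tissue, and 1 fell. That gene, Fam213b, whose product reduces prostaglandin H2 and its ethanolamide to the F2α form, had 55.1, 75.8 and 68.7 FPKM in TBI libraries against 96.2, 107 and 98.8 FPKM in Sham libraries (log2 difference -0.60, SE 0.14, adjusted p = 0.0119 by limma). Ptges2, another prostaglandin E synthase, had a log2 difference of -0.37 (adjusted p = 0.0803 by limma) and Akr1c18, an aldo-keto reductase, one of -0.65 (adjusted p = 0.174 by limma), and neither passed.

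In the leukotriene arm the transcript of the accessory protein rose, and the difference of that of the downstream hydrolase was near 0. Alox5ap (chr5:149264767-149288153, plus strand), which presents arachidonic acid to 5-lipoxygenase, had 17.7, 8.998 and 7.62 FPKM in TBI libraries, against 1.88, 2.53 and 3.04 FPKM in Sham libraries. The lowest TBI library held more than any Sham library by a wide margin. The log2 difference was 1.93 (SE 0.29, adjusted p = 0.00230 by limma), the smallest p of the 10 genes. The authors' interval reached 0 in 4 of the 9 libraries, all 3 Sham libraries and C-β-LG/DSF 2. The antisense gene Gm19719 overlaps Alox5ap, and the strand setting of the authors' quantification is not given in the sources used here, so their reads may not be told apart.

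Alox5 (chr6:116410077-116461178, minus strand), the 5-lipoxygenase itself, was the lowest of the 10 transcripts in each group's mean. It had 1.46, 0.696 and 0.488 FPKM in TBI libraries, against 0.416, 0.192 and 0.347 FPKM in Sham libraries. The groups did not overlap, but the authors' interval reached 0 in all 9 libraries. The log2 difference of 0.70 (95% interval 0.02 to 1.39) did not pass (adjusted p = 0.120 by limma). Alox5 met the filter only through TBI 1, TBI 2 and C-β-LG/DSF 3.

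Lta4h (chr10:93453411-93484874 in the file, plus strand), leukotriene A4 hydrolase and also an aminopeptidase, had 17.5, 17.3 and 16.0 FPKM in TBI libraries and 17.6, 16.7 and 17.0 FPKM in Sham libraries. The libraries interleaved. Its log2 difference was -0.01 with a 95% interval of -0.25 to 0.22 (adjusted p = 0.945 by limma).

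On the other branch from leukotriene A4, the transcript of leukotriene C4 synthase rose with Alox5ap. Of 15 further lipoxygenase and leukotriene genes 9 were tested in TBI against Sham tissue, with 2 higher and 2 lower. The shares over all tested genes were 14.9% higher and 12% lower. Ltc4s had 17.4, 21.7 and 10.02 FPKM in TBI libraries against 2.05, 4.20 and 3.04 FPKM in Sham libraries (log2 difference 2.21, SE 0.35, adjusted p = 0.00270 by limma). Cotl1, an actin-binding protein that also binds 5-lipoxygenase, had 193, 96.5 and 76.8 FPKM in TBI libraries against 23.7, 27.7 and 27.9 FPKM in Sham libraries (log2 difference 2.07, adjusted p = 0.0020 by limma). Neither gene had a TBI library within the Sham range. For Ltc4s the authors' interval reached 0 in 7 of the 9 libraries. Mgst3, a microsomal glutathione transferase with leukotriene C4 synthase activity, fell to 36.7, 49.5 and 60.0 FPKM in TBI libraries against 75.8, 79.9 and 81.7 FPKM in Sham libraries (log2 difference -0.72, adjusted p = 0.0106 by limma). Alox12b, the 12R-lipoxygenase best known from skin, was called lower (-1.48, adjusted p = 0.0350 by limma), a call that did not pass without any of the 3 Sham libraries, without TBI 3 or with no filter.

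**Figure D4:**
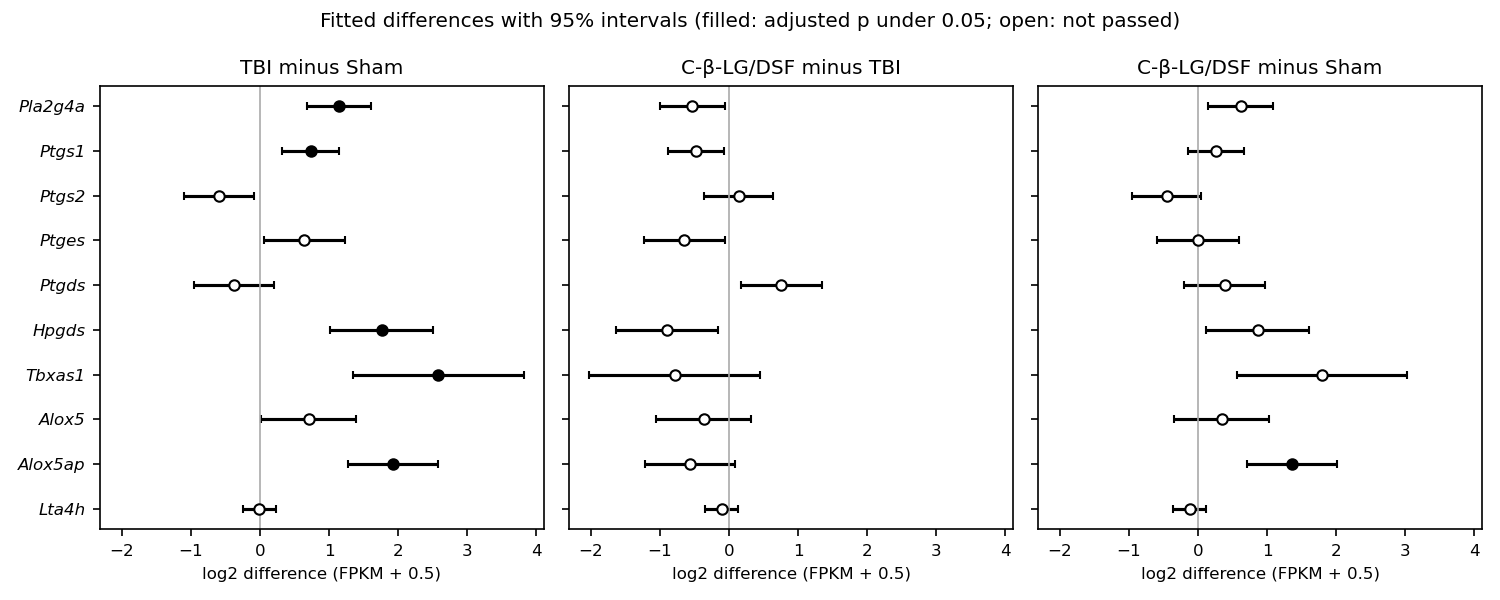
Fitted log2 differences of the 10 genes in the 3 comparisons, with 95% intervals of the fit for each gene alone; filled points passed the test and open points did not. In TBI minus Sham 5 points are filled, in C-β-LG/DSF minus TBI none is, and in C-β-LG/DSF minus Sham Alox5ap is.

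No tested prostanoid receptor was called, whereas Gpr17 and Cmklr1 of the leukotriene and lipoxin receptor list rose. Of 9 prostanoid receptors 5 were tested, and Ptger4 (0.37), Ptgdr (0.38) and Tbxa2r (0.29) had positive log2 differences that did not pass, with adjusted p between 0.211 and 0.365 by limma. Ptgir, the prostacyclin receptor, was under the filter at 0.389, 0.249 and 0.225 FPKM in TBI libraries against 0.0792, 0.0912 and 0.0438 FPKM in Sham libraries, and was called higher when no filter was used (0.46, adjusted p = 0.0151 by limma), with the authors' interval reaching 0 in all 9 libraries. Of 8 genes of the leukotriene and lipoxin receptor list 4 were tested and 2 called higher, beside 14.9% of all tested genes. The leukotriene receptors Ltb4r1, Ltb4r2 and Cysltr2, and Oxgr1, were under the filter. Gpr17, a receptor of maturing oligodendrocyte precursors reported to respond to cysteinyl leukotrienes, had 53.2, 56.7 and 49.8 FPKM in TBI libraries against 23.9, 19.2 and 21.9 FPKM in Sham libraries (log2 difference 1.28, SE 0.12, adjusted p = 0.000658 by limma). Cmklr1, the chemerin receptor, had 5.70, 2.13 and 3.01 FPKM in TBI libraries against 0.758, 1.12 and 0.447 FPKM in Sham libraries (log2 difference 1.63, adjusted p = 0.0128 by limma), but did not pass without Sham 3. The authors' interval for Cmklr1 reached 0 in 7 of the 9 libraries. Cysltr1, a receptor of cysteinyl leukotrienes, had 1.73, 0.342 and 0.647 FPKM in TBI libraries and 0.382, 0.754 and 0.285 FPKM in Sham libraries, and its difference of 0.44 did not pass (adjusted p = 0.403 by limma).

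Of the genes that transport or inactivate eicosanoids, 5 were called higher and none lower, and 2 of the 5, Cyp4f18 and Ptgr1, met the filter through injured libraries alone. All 10 listed genes were tested in TBI against Sham tissue, and all 10 had a value above 0 (Abcc1 had -0.10 with quantile normalization). The median log2 difference was 0.73, beside 0.01 over all tested genes. Cyp4f18, the mouse enzyme that hydroxylates leukotriene B4, had 2.18, 2.05 and 1.59 FPKM in TBI libraries and was listed at 0 in all 3 Sham libraries. The authors' interval for Cyp4f18 included 0 in all 9 libraries. Ptgr1, which reduces prostaglandin metabolites and oxidises leukotriene B4, had 3.73, 1.81 and 1.62 FPKM in TBI libraries against 0.212, 0.351 and 0.340 FPKM in Sham libraries (log2 difference 1.78, SE 0.27, adjusted p = 0.00244 by limma). For Ptgr1 the authors' interval reached 0 in 7 of the 9 libraries. Cyp4f16 had 7.13, 4.10 and 4.44 FPKM in TBI libraries against 2.24, 2.28 and 2.84 FPKM in Sham libraries (log2 difference 0.92, adjusted p = 0.00854 by limma). Hpgd, which inactivates prostaglandins by oxidation, and Cyp4f13 were also called, but Hpgd did not pass without any of the 3 Sham libraries, TBI 1 or TBI 2, and Cyp4f13 did not without Sham 1, Sham 3, TBI 1, TBI 3, C-β-LG/DSF 2 or C-β-LG/DSF 3. Neither passed with quantile normalization or with no filter, and Cyp4f13 did not with the replicate block or with only TBI and Sham fitted.

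Pla2g2e, a secreted phospholipase A2 under the filter and chosen after its values were seen, was listed at 0 in every C-β-LG/DSF library, had 0.582, 0.488 and 0.516 FPKM in TBI libraries and was listed at 0 in every Sham library. The authors' intervals in the TBI libraries all reached 0. Dpep2, a dipeptidase of the leukotriene list that was also under the filter, had 1.38, 0.450 and 0.319 FPKM in TBI libraries against 0.0422, 0 and 0 FPKM in Sham libraries. With no filter Dpep2 was called higher in TBI than in Sham tissue (1.14, adjusted p = 0.0194 by limma), although the authors' interval reached 0 in every library.

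Most markers of microglia and of monocytes and macrophages were higher in injured tissue beside the 5 genes that rose, while most neutrophil markers were too low to test. Microglial markers summed to 178 to 244 FPKM in C-β-LG/DSF libraries, 255 to 399 FPKM in TBI libraries and 106 to 144 FPKM in Sham libraries, and 10 of 11 were called higher in TBI than in Sham tissue (Csf1r and P2ry12 among them). Markers of monocytes and macrophages summed to 86.3 to 140 FPKM in C-β-LG/DSF, 237 to 533 FPKM in TBI and 15.7 to 32.6 FPKM in Sham libraries, with 6 of 12 called higher in TBI than in Sham tissue and Lyz2 the largest part of the TBI sums (211 to 433 FPKM in TBI against 3.29 to 4.41 FPKM in Sham libraries). Of the 10 tested, 9 values were above 0 and 1 below, and Ccr2 and Chil3 were under the filter. The monocyte marker Ly6c2 had a lower mean in TBI than in Sham libraries (4.61 against 13.8 FPKM), with overlapping ranges. Neutrophil markers summed to 7.98 to 39.7 FPKM in C-β-LG/DSF, 11.8 to 20.7 FPKM in TBI and 3.94 to 4.33 FPKM in Sham libraries, with 1 of 12, Csf3r, called of the 5 tested and 3 under 0.5 FPKM in every library. The highest neutrophil sum, 39.7 FPKM, was that of C-β-LG/DSF 2, the lowest library of its group for 6 of the 10 genes. Astrocyte markers summed to 1947 to 3249 FPKM in TBI against 991 to 1213 FPKM in Sham libraries (5 of 8 called higher), and endothelial markers to 141 to 245 FPKM against 112 to 143 FPKM (1 of 8 called higher, Cldn5). TBI 1, the highest TBI library for 8 of the 10 genes, also had the highest sum of monocyte and macrophage markers, although its microglial sum of 385 FPKM was below the 399 FPKM of TBI 2, and TBI 3, the lowest for 8 of the 10, had the lowest sums of both lists among TBI libraries. Of the 5 genes that rose, Ptgs1 was highest and Pla2g4a lowest in TBI 2. The part of these lists in the differences was not tested.

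**Figure D5:**
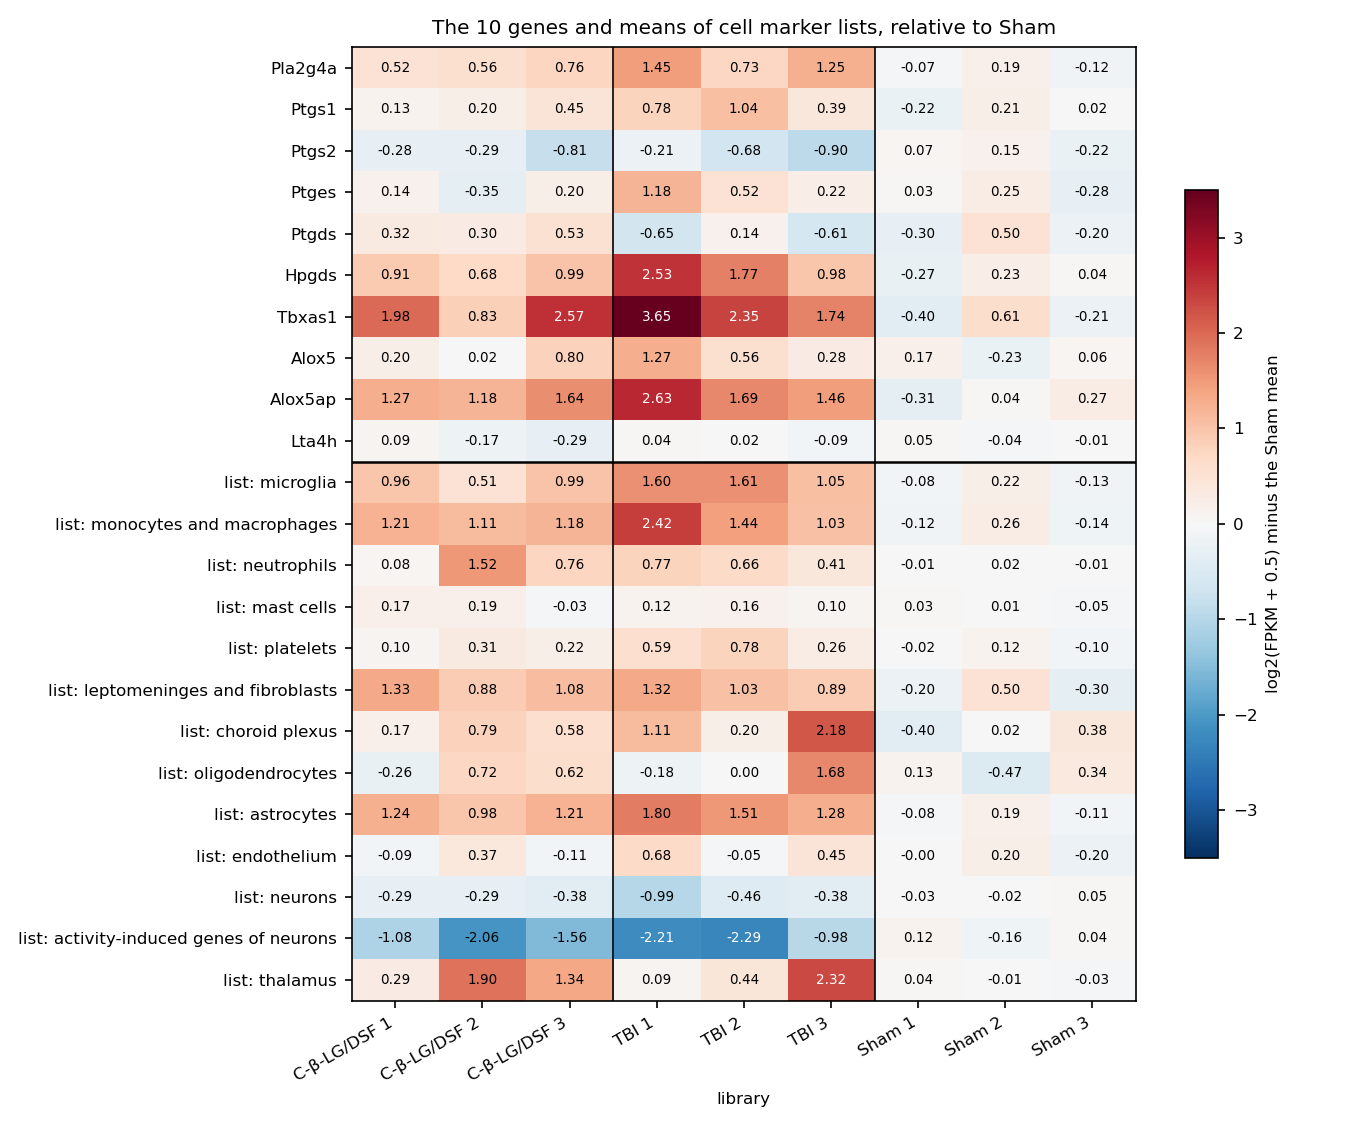
Heat map of log2(FPKM + 0.5) minus the Sham mean for the 10 genes (upper block) and for the mean of each marker list (lower block), with libraries as columns in the order C-β-LG/DSF, TBI and Sham. Tbxas1 reaches 3.65 in TBI 1 and Alox5ap 2.63, while Lta4h stays between -0.29 and 0.09 in all 9 libraries.

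The profiles of the 5 genes that rose were most like those of the following genes, measured by the root mean square difference of log2 values centred on the Sham mean over the 9 libraries, out of 13807 genes compared. For Pla2g4a these were Pmp22 (0.0902) and Frmd8 (0.109), with a median of 0.802 over all genes. Ptgs1 was nearest to Amdhd2 (0.134) and Rlbp1 (0.144; median 0.560). Hpgds was nearest to Bin2 (0.154) and Rhoc (0.159; median 1.21), and Alox5ap to Slc16a3 (0.107) and Lyn (0.146; median 1.41). Tbxas1 had the loosest matches, Pld4 (0.280) and Uhrf1 (0.288; median 1.94). Since all share the 9 libraries, these are descriptions of likeness in this experiment.

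In C-β-LG/DSF against TBI tissue, none of the 10 genes passed the test, and neither did any of the 14292 tested genes (0.0% called, smallest adjusted p 0.361 by limma). At an unadjusted p under 0.05 there were 5 of the 10 genes (Pla2g4a, Ptgs1, Ptges, Ptgds and Hpgds), beside 1693 of all tested genes (11.8%). The median log2 difference of the 10 was -0.50, beside -0.02 over all tested genes, and 8 of the 10 values were below 0. The same TBI libraries serve here and in TBI against Sham, with opposite signs, so the differences of these comparisons are not independent. With intervals this wide, a missed threshold does not show that the treated and untreated tissues were alike.

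Ptgds and Ptges were the 2 genes whose C-β-LG/DSF and TBI libraries did not overlap. Ptgds had 1063, 1044 and 1227 FPKM in C-β-LG/DSF libraries, against 541, 935 and 554 FPKM in TBI libraries. All C-β-LG/DSF libraries were higher than all TBI libraries, a separation that 5.97% of tested genes showed in that direction. The log2 difference was 0.76 (95% interval 0.17 to 1.34) and did not pass (adjusted p = 0.394 by limma). Ptges had 3.13, 2.08 and 3.28 FPKM in C-β-LG/DSF libraries, against 6.99, 4.22 and 3.35 FPKM in TBI libraries. Here the C-β-LG/DSF libraries were lower, the nearest pair being separated by little, as were 9.28% of tested genes. The log2 difference of -0.65 (95% interval -1.24 to -0.06) did not pass (adjusted p = 0.404 by limma).

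The myeloid-type enzymes had lower means in C-β-LG/DSF tissue with overlapping libraries. Hpgds had 3.38, 2.82 and 3.62 FPKM in C-β-LG/DSF libraries, against 11.4, 6.58 and 3.58 FPKM in TBI libraries. C-β-LG/DSF 3 lay just above TBI 3, so the groups overlapped by that pair. The log2 difference was -0.90 (95% interval -1.64 to -0.16, adjusted p = 0.396 by limma). The log2 ratio of Hpgds to Ptgds was -8.10, -8.30 and -8.22 in C-β-LG/DSF libraries, below each TBI value (-5.50, -7.05 and -7.09), with a difference of -1.66 (exact permutation p = 0.1, adjusted p = 0.12).

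Pla2g4a had 1.25, 1.31 and 1.57 FPKM in C-β-LG/DSF libraries, against 1.53 to 2.85 FPKM in TBI libraries. Only C-β-LG/DSF 3 reached into the TBI range, and the log2 difference was -0.53 (95% interval -0.999 to -0.06, adjusted p = 0.400 by limma). Ptgs1 had 5.94, 6.27 and 7.54 FPKM in C-β-LG/DSF libraries, against 7.22 to 11.6 FPKM in TBI libraries, with a log2 difference of -0.48 (95% interval -0.89 to -0.07, adjusted p = 0.400 by limma). Alox5ap had 6.59, 6.18 and 8.65 FPKM in C-β-LG/DSF libraries, against 7.62 to 17.7 FPKM in TBI libraries, with a log2 difference of -0.57 (95% interval -1.21 to 0.08, adjusted p = 0.460 by limma). In each of these 3 genes the highest C-β-LG/DSF library, number 3, was above the lowest TBI library.

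Tbxas1 was the most variable in the C-β-LG/DSF group, with 3.93, 1.496 and 6.16 FPKM, against 3.25 to 13.6 FPKM in TBI libraries. Its log2 difference of -0.79 had a 95% interval of -2.02 to 0.45 (adjusted p = 0.549 by limma). Alox5 had 0.436, 0.323 and 0.912 FPKM in C-β-LG/DSF libraries, against 0.488 to 1.46 FPKM in TBI libraries (log2 difference -0.36, adjusted p = 0.618 by limma). Both genes were lowest in C-β-LG/DSF 2 and highest in C-β-LG/DSF 3 within that group.

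Ptgs2 had 2.51, 2.48 and 1.58 FPKM in C-β-LG/DSF libraries, against 1.45 to 2.65 FPKM in TBI libraries. All C-β-LG/DSF values fell inside the TBI range, and the log2 difference was 0.14 (95% interval -0.36 to 0.64, adjusted p = 0.803 by limma), or -0.02 without TBI 3. The log2 ratio of Ptgs2 to Ptgs1 was -1.10, -1.18 and -1.95 in C-β-LG/DSF libraries, 0.62 above that of TBI libraries (exact permutation p = 0.2). Lta4h had 18.3, 15.1 and 13.9 FPKM in C-β-LG/DSF libraries, against 16.0 to 17.5 FPKM in TBI libraries, with a log2 difference of -0.11 (95% interval -0.35 to 0.13, adjusted p = 0.661 by limma).

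Of the 51 tested genes of the 6 lists none was called in C-β-LG/DSF against TBI tissue. Gpr17 had 38.0, 30.1 and 39.2 FPKM in C-β-LG/DSF libraries against 49.8 to 56.7 FPKM in TBI libraries, and its difference of -0.57 did not pass (adjusted p = 0.394 by limma). Lpcat2 had 4.10, 4.75 and 5.77 FPKM in C-β-LG/DSF libraries against 7.12 to 10.5 FPKM in TBI libraries, and its difference of -0.75 did not pass either (adjusted p = 0.394 by limma). For both genes the groups did not overlap, as for 12 of the 51 list genes, 2 of them higher in C-β-LG/DSF tissue and 10 lower, where 5.97% of all tested genes were separated upward and 9.28% downward. The 2 that were higher were Mboat7, a lysophosphatidylinositol acyltransferase (log2 difference 0.34, adjusted p = 0.394 by limma), and Acsl4 (0.41, adjusted p = 0.397 by limma), and neither passed. All 10 values of the transport and inactivation list were below 0, with a median of -0.42 beside -0.02 over all tested genes. Among them, Cyp4f13 changed sign without TBI 1 or without C-β-LG/DSF 3. None of the 11 microglial markers was called and all 11 values were below 0 (median -0.68), as were 7 of the 10 tested monocyte and macrophage markers. In contrast, 4 of the 5 tested neutrophil markers (median 0.31) and 7 of the 12 leptomeningeal and fibroblast markers (median 0.17) were above 0, with none called. The part of these lists was not tested.

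In C-β-LG/DSF against Sham tissue, Alox5ap was the 1 of 10 genes that rose, and none fell. Here 6.37% of all tested genes were called higher, 6.88% lower and 13.3% either way; with equal FPKM totals per library 1323 genes were called higher and 704 lower, against 911 and 984 as deposited. The median log2 difference of the 10 genes was 0.36, beside 0.01 over all tested genes, and 4 of the 10 had an unadjusted p under 0.05, beside 29.8% of all tested genes. The same Sham libraries serve here and in the comparison with TBI.

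Alox5ap had 6.59, 6.18 and 8.65 FPKM in C-β-LG/DSF libraries, against 1.88, 2.53 and 3.04 FPKM in Sham libraries. Every C-β-LG/DSF library exceeded every Sham library. The log2 difference was 1.36 (SE 0.29, adjusted p = 0.0163 by limma). Without Sham 1 it was 1.21 (adjusted p = 0.0678 by limma), without Sham 2 it was 1.38 (adjusted p = 0.0511 by limma) and without C-β-LG/DSF 3 it was 1.22 (adjusted p = 0.0734 by limma), so the call rests on those libraries. The authors' interval reached 0 in every Sham library and in C-β-LG/DSF 2. In the same comparison 7 of 11 microglial markers were called higher and all 11 values were above 0, and of 10 tested monocyte and macrophage markers 2 (Lyz2 and Cd14) were called higher and 9 were above 0. The part of these lists in the values of Alox5ap and of the genes that follow was not tested.

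Pla2g4a, Hpgds and Tbxas1 also had every C-β-LG/DSF library above every Sham library, and with Alox5ap made 4 of 10 genes, where 22.0% of all tested genes were so separated and 43.1% were separated in either direction. Their log2 differences were 0.61 (95% interval 0.14 to 1.08, adjusted p = 0.0827 by limma) for Pla2g4a, 0.86 (0.12 to 1.60, adjusted p = 0.117 by limma) for Hpgds and 1.79 (0.56 to 3.03, adjusted p = 0.0611 by limma) for Tbxas1. None passed, but all 3 did when C-β-LG/DSF and Sham were fitted without the TBI libraries (adjusted p between 0.0102 and 0.0308 by limma). That fit also called more of all tested genes higher than the 911 of the fit of all libraries. With 1 library left out, 296 to 1536 of all tested genes were called higher. Leaving out 1 library also made calls: all 3 without TBI 1, Hpgds and Tbxas1 without TBI 3, Pla2g4a without TBI 2, and Tbxas1 without C-β-LG/DSF 2. Tbxas1 had met the filter through the injured libraries. The authors' interval reached 0 in all 9 libraries for Tbxas1 and in 5 for Pla2g4a.

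Ptgs2 had a value below 0. With 2.51, 2.48 and 1.58 FPKM in C-β-LG/DSF libraries, against 3.32, 3.54 and 2.62 FPKM in Sham libraries, every C-β-LG/DSF library was lower, as for 21.0% of tested genes. The log2 difference of -0.46 (95% interval -0.96 to 0.05) did not pass (adjusted p = 0.206 by limma). The log2 ratio of Ptgs2 to Ptgs1 was also lower in every C-β-LG/DSF library than in any Sham library (difference -0.71, exact permutation p = 0.1, adjusted p = 0.12). That of Hpgds to Ptgds was higher in every C-β-LG/DSF library (difference 0.48, exact permutation p = 0.1, adjusted p = 0.12). Activity-induced genes summed to 245 to 515 FPKM in C-β-LG/DSF libraries against 1066 to 1289 FPKM in Sham libraries, with 10 of 12 called lower; their part in the Ptgs2 values was not tested.

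The other 5 genes overlapped between C-β-LG/DSF and Sham libraries. Their log2 differences were 0.26 for Ptgs1 (95% interval -0.15 to 0.67), 0.38 for Ptgds (-0.20 to 0.97), 0.34 for Alox5 (-0.35 to 1.03), -0.01 for Ptges (-0.60 to 0.58) and -0.12 for Lta4h (-0.36 to 0.12), with adjusted p between 0.3602 and 0.992 by limma. Ptges thus had 3.13, 2.08 and 3.28 FPKM in C-β-LG/DSF libraries, next to 2.87, 3.42 and 2.21 FPKM in Sham libraries, with no order between them.

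Around the 10 genes, the C-β-LG/DSF tissue had 6 of the 51 tested list genes higher and 6 lower than Sham tissue. Over all tested genes 6.37% were called higher and 6.88% lower. Higher were Lpcat3, Ltc4s, Cotl1, Gpr17, Ptgr1 and Cyp4f18. Ltc4s had 11.9, 6.89 and 14.8 FPKM in C-β-LG/DSF libraries against 2.05, 4.20 and 3.04 FPKM in Sham libraries (log2 difference 1.68, adjusted p = 0.0149 by limma). Gpr17, at 38.0, 30.1 and 39.2 FPKM against 23.9, 19.2 and 21.9 FPKM in Sham libraries, had a log2 difference of 0.71 (adjusted p = 0.00738 by limma). Lower were Pla2g4e, the endocannabinoid genes Dagla, Daglb and Mgll, and the prostaglandin F synthases Fam213b and Akr1c18. Pla2g4e had 6.47, 8.35 and 8.47 FPKM in C-β-LG/DSF libraries against 19.1, 14.0 and 16.4 FPKM in Sham libraries (log2 difference -1.04, adjusted p = 0.00308 by limma). Of these 12 genes, Gpr17 and Pla2g4e passed under all 18 alternative settings, and each of the other 10 lost its call without at least 1 library: C-β-LG/DSF 3 for all of these 10, Sham 1 or Sham 3 for all but Dagla, and for Dagla C-β-LG/DSF 3 alone. Calls also ended with other processing: with quantile normalization for Mgll, Lpcat3, Fam213b, Ptgr1 and Cyp4f18, with no filter for Mgll, Lpcat3 and Akr1c18, with equal totals for Mgll and Daglb, with the replicate block for Mgll and Akr1c18, with no mean trend for Mgll and with a pseudocount of 1 for Ptgr1. Cyp4f18 and Ptgr1 had met the filter through injured libraries alone. The authors' interval reached 0 in all 9 libraries for Cyp4f18 and Akr1c18, in 7 for Ltc4s and Ptgr1, and in 6 for Daglb.

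The order of the transcripts by mean FPKM, a level per kilobase, differed between injured and Sham tissue. In C-β-LG/DSF tissue it ran Ptgds (1111), Lta4h (15.8), Alox5ap (7.14), Ptgs1 (6.58), Tbxas1 (3.86), Hpgds (3.27), Ptges (2.83), Ptgs2 (2.19), Pla2g4a (1.38) and Alox5 (0.557). From Alox5ap through Ptgs2 the ranges of neighbours overlapped. In TBI tissue the means were 677 FPKM for Ptgds, 16.9 for Lta4h, 11.5 for Alox5ap, 9.49 for Ptgs1, 7.35 for Tbxas1, 7.20 for Hpgds, 4.85 for Ptges, 2.26 for Pla2g4a, 1.96 for Ptgs2 and 0.881 for Alox5. There, only Ptgds from Lta4h and Ptges from Pla2g4a were neighbours without overlap. In Sham tissue the order was Ptgds (876), Lta4h (17.1), Ptgs1 (5.44), Ptgs2 (3.16), Ptges (2.83), Alox5ap (2.48), Hpgds (1.59), Pla2g4a (0.729), Tbxas1 (0.678) and Alox5 (0.318). Ptgs2, Ptges, Alox5ap and Hpgds overlapped from neighbour to neighbour, as did Pla2g4a, Tbxas1 and Alox5. Alox5ap thus stood at place 3 in C-β-LG/DSF and TBI tissue and at place 6 in Sham tissue, and Ptgs2 at place 8 in C-β-LG/DSF, 9 in TBI and 4 in Sham tissue.

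Within the groups the 10 genes followed certain libraries. The median of the 10 Sham-centred log2 values was 0.26, 0.25 and 0.65 in C-β-LG/DSF libraries 1, 2 and 3, and 1.23, 0.64 and 0.34 in TBI libraries 1, 2 and 3. C-β-LG/DSF 3 was the highest library of its group for 8 genes, and C-β-LG/DSF 2 the lowest for 6. TBI 3 was the lowest of its group for 8 genes. Thalamic marker sums did not follow one order with these: they were 63.5, 200.2 and 137 FPKM in C-β-LG/DSF libraries 1, 2 and 3 and 51.4, 68.1 and 272 FPKM in TBI libraries 1, 2 and 3, so C-β-LG/DSF 3, the highest of its group for 8 genes, had more than double the sum of C-β-LG/DSF 1. The part of tissue content in the values was not tested.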

How the data were processed

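Per the labels, Trizol was used to isolate total RNA from mouse brain, and sequencing libraries were prepared using an Illumina kit for stranded total RNA. The authors deposited FPKM per gene and library and, also in FPKM, the bounds of an interval; HISAT2 2.1.0 and Cufflinks 2.2.1 are named in the submitters' processing notes. The sources used here do not state read counts, depth, strand setting, build or annotation; 22452 of 22482 identifiers were found in GENCODE M21 (GRCm38).

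FPKM values were taken as log2(FPKM + 0.5) and fitted for all 3 groups together (9 libraries, 6 residual degrees of freedom) in limma 3.58.1 under R 4.3.3, with moderated variances and a mean trend, two-sided, with Benjamini-Hochberg adjustment over the 14292 genes at an FPKM of at least 0.5 in at least 3 libraries; the script was tested on simulated data. Differences are the first-named group minus the second. Ratios were compared by exact permutation tests over libraries. The 10 genes, the 6 pathway lists and the marker lists were chosen with earlier results of these data known. 1 microglial marker is left out of its list and not reported here. Named from each pathway list were the up to 3 genes of smallest p in TBI against Sham; other called genes were named after their values were seen. The alternatives were 2 other pseudocounts, 2 filters, equal totals, quantile normalization, fits of 2 groups, a replicate block, no mean trend and each library left out. Replicate numbers were checked for pairing and did not pair the libraries.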

Additional observations from a re-analysis of the deposited data

How the results depend on the processing

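The directions and calls of the 10 genes held in 499 repeats; in 15 a call was gained, in 5 it was lost and in 9 the sign changed. In TBI against Sham, 4 to 6 genes were called higher when 1 library was left out (5 in the analysis of all libraries), 5 without TBI 1 and 6 without TBI 3, and 0 to 1 lower; the lower gene was Ptgs2, called also with quantile normalization (1 lower gene) and with the replicate block (1 lower gene, -0.60, adjusted p = 0.0343 by limma). In C-β-LG/DSF against TBI no repeat called any of the 10. For C-β-LG/DSF against Sham tissue the count of 1 became 2 with a pseudocount of 0.1 and 4 with only these 2 groups fitted, and 0 to 4 when 1 library was left out. The differences of Lta4h in TBI against Sham and Ptges in C-β-LG/DSF against Sham were near 0 and changed sign. Lta4h had -0.01, with 0.0295 at equal totals and -0.036 to 0.0266 with 1 library left out. Ptges had -0.01, with 0.072 at equal totals and -0.15 to 0.17 with 1 library left out. Ptgs2 in C-β-LG/DSF against TBI, at 0.14, ran between -0.0159 and 0.33 with 1 library left out. Alox5 in C-β-LG/DSF against Sham was not near 0, and moved from 0.34 to -0.0404 with quantile normalization. The cause was not tested. Alox5 gave no value with the filter at 1 FPKM or without TBI 1, TBI 2 or C-β-LG/DSF 3, since it then failed the filter. The 48 repeats of the ratios kept their direction.

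The replicate numbers did not pair the libraries: 2 of 9 same-numbered pairs deviated together with a correlation over 0.1 (range -0.09 to 0.33), and a library correlated best with its own number in 4 of 18 checks. The block changed no call of the 10 genes other than that of Ptgs2.

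Over all genes, fitting only C-β-LG/DSF and Sham called 1806 genes higher and 1638 lower, against 911 and 984. With 1 library left out, TBI against Sham called 1291 to 2352 higher and 940 to 2025 lower, and C-β-LG/DSF against Sham 296 to 1536 higher and 369 to 1399 lower. In C-β-LG/DSF against TBI, 2 genes were called lower with no filter, Pla2g2e among them (adjusted p = 0.000743 by limma), and 1 without the mean trend. Pla2g2e was listed at 0 in every C-β-LG/DSF and Sham library and at 0.488 to 0.582 FPKM in TBI libraries. The authors' interval included 0 in all 9 libraries, so this p rests on very low values. List genes higher in C-β-LG/DSF than in Sham numbered 10 with equal totals, 3 with quantile normalization and 13 with only these 2 groups, against 6.

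Without counts, no floor can be set for the low genes Alox5, Tbxas1 and Pla2g4a, and 3 libraries a group limit the precision of every difference.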
